A study of Homo sapiens with 13 samples.

Results

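Solute carriers are the membrane proteins that move amino acids, sugars, ions, nucleotides and vitamins across the plasma membrane and the membranes of organelles. The genes described here are those whose annotated symbol has the form SLC, a family number, A and a member number, or begins with SLCO, without SLC7A5 and SLC1A4. The array carried 44 such genes, and 34 of them had at least 1 spotted cDNA feature with a value on 7 or more of the 13 arrays, out of 3841 named genes that met the same condition. By substrate they comprised 8 carriers of amino acids and peptides, 4 of sugars and nucleotide sugars, 10 of ions and metals, 6 mitochondrial carriers of the SLC25 family and 6 with other substrates. The 10 genes left out were SLC11A1, SLC12A7, SLC15A2, SLC25A32, SLC25A40, SLC2A5, SLC38A9, SLC5A6, SLC71A1 and SLC71A3P, whose best feature had a value on 2 to 6 arrays.

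Transport by these proteins is either facilitated, following the gradient of the solute, or driven by a gradient of sodium or protons, or an exchange of one solute for another. The SLC3A2 protein is a partner that carries the light chains SLC7A5 and SLC7A6 to the plasma membrane, where they exchange amino acids. Nucleotide sugar carriers of the SLC35 family bring activated sugars into the Golgi for glycosylation, and SLC25 carriers link the cytosol with the mitochondrial matrix. Plasma cells make and secrete large amounts of glycosylated antibody, and so draw heavily on amino acid uptake and on the Golgi supply of sugars.

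The arrays compared 3 human myeloma cell lines, KMS12, H929 and SKMM1, that had been infected with a doxycycline-inducible hairpin against IRF4 or with a control hairpin against luciferase (shluc). IRF4 is a transcription factor on which myeloma cells, malignant plasma cells, depend. Each Lymphochip cDNA array held both cultures of a line, the IRF4 hairpin in Cy5 and the control in Cy3, so the values are log2 ratios of hairpin over control and not levels. KMS12 was studied in 3 series of cultures, which the labels call 1332, 1332b and 2046. Uninduced KMS12 cells gave 3 arrays, 1 of each series. KMS12 cells under doxycycline at 20 ng/ml gave 3 arrays at days 2-3 (day 3 for series 1332, day 2 for 1332b and 2046), 3 at days 4-5 (day 5 for 1332, day 4 for the other two) and 1 at day 7 (1332). H929 gave 2 repeat arrays and SKMM1 gave 1, all with hairpin 2046 at day 4 of the same dose. The labels name the doxycycline days for both cultures of an induced array, so the drug was shared by hairpin and control cells, and each line stands for a single source of cells.

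The labels do not say that arrays of a group came from separately grown cultures. The p-values therefore reflect array-to-array spread that may be partly technical, or wholly so between the H929 repeats. In KMS12 that spread also includes differences of series and hairpin number, and of day in the induced windows. The small number of arrays limits the precision. Day and series cannot be told apart within a window, and series 2046 carries a different hairpin number from 1332 and 1332b. RNA came from whole cultures, so fewer cells with a transcript and less of it per cell cannot be told apart. Between 7140 and 14228 of the 15246 features had a value on an array. Each array was centred on its median, so a ratio of 0 stands for the median feature.

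IRF4 itself stood at 0.32, 0.14 and 0.36 on the uninduced arrays of series 1332, 1332b and 2046. At days 2-3 its log2 ratios were -1.23, -1.83 and -0.89, and at days 4-5 they were -0.69, -0.85 and -0.73. The day 7 array gave -0.74, the H929 arrays -1.84 and -2.03, and the SKMM1 array -2.09. All 10 induced arrays thus lay below the 3 uninduced ones, in the direction the labels give. The difference from the uninduced arrays was -1.59 at days 2-3 (SE 0.25, limma adjusted p = 0.0889) and -1.03 at days 4-5 (SE 0.25, limma adjusted p = 0.793), so the targeted gene itself did not pass an adjusted p of 0.05 in this fit.

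The solute carrier ratios did not shift together in a common direction at days 2-3 or at days 4-5. No member passed an adjusted p of 0.05 in any of the 7 comparisons made with limma. At days 2-3 the members with the smallest p-values included the Golgi carrier SLC35A1 and the mitochondrial carriers SLC25A51 and SLC25A33 below the uninduced arrays, and the organic anion transporter SLCO3A1 above them. At days 4-5 the ratio of SLC35A1 was near its uninduced one, and that of the amino acid exchanger subunit SLC3A2 lay below its uninduced arrays. Of the 30 members tested at days 2-3 against uninduced, 16 lay above 0 and 14 below, with a median log2 difference of 0.02 where all 5980 genes and unnamed features tested had 0.02. Of the 33 members tested at days 4-5, 17 lay above and 16 below, with a median of 0.02 where all 6521 had 0.03. The single day 7 array had ratios below 0 for 17 of 24 members (70.8%, against 48.5% of all genes). Its median over the members was -0.19, against 0.02 over all genes.

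**Figure D1:**
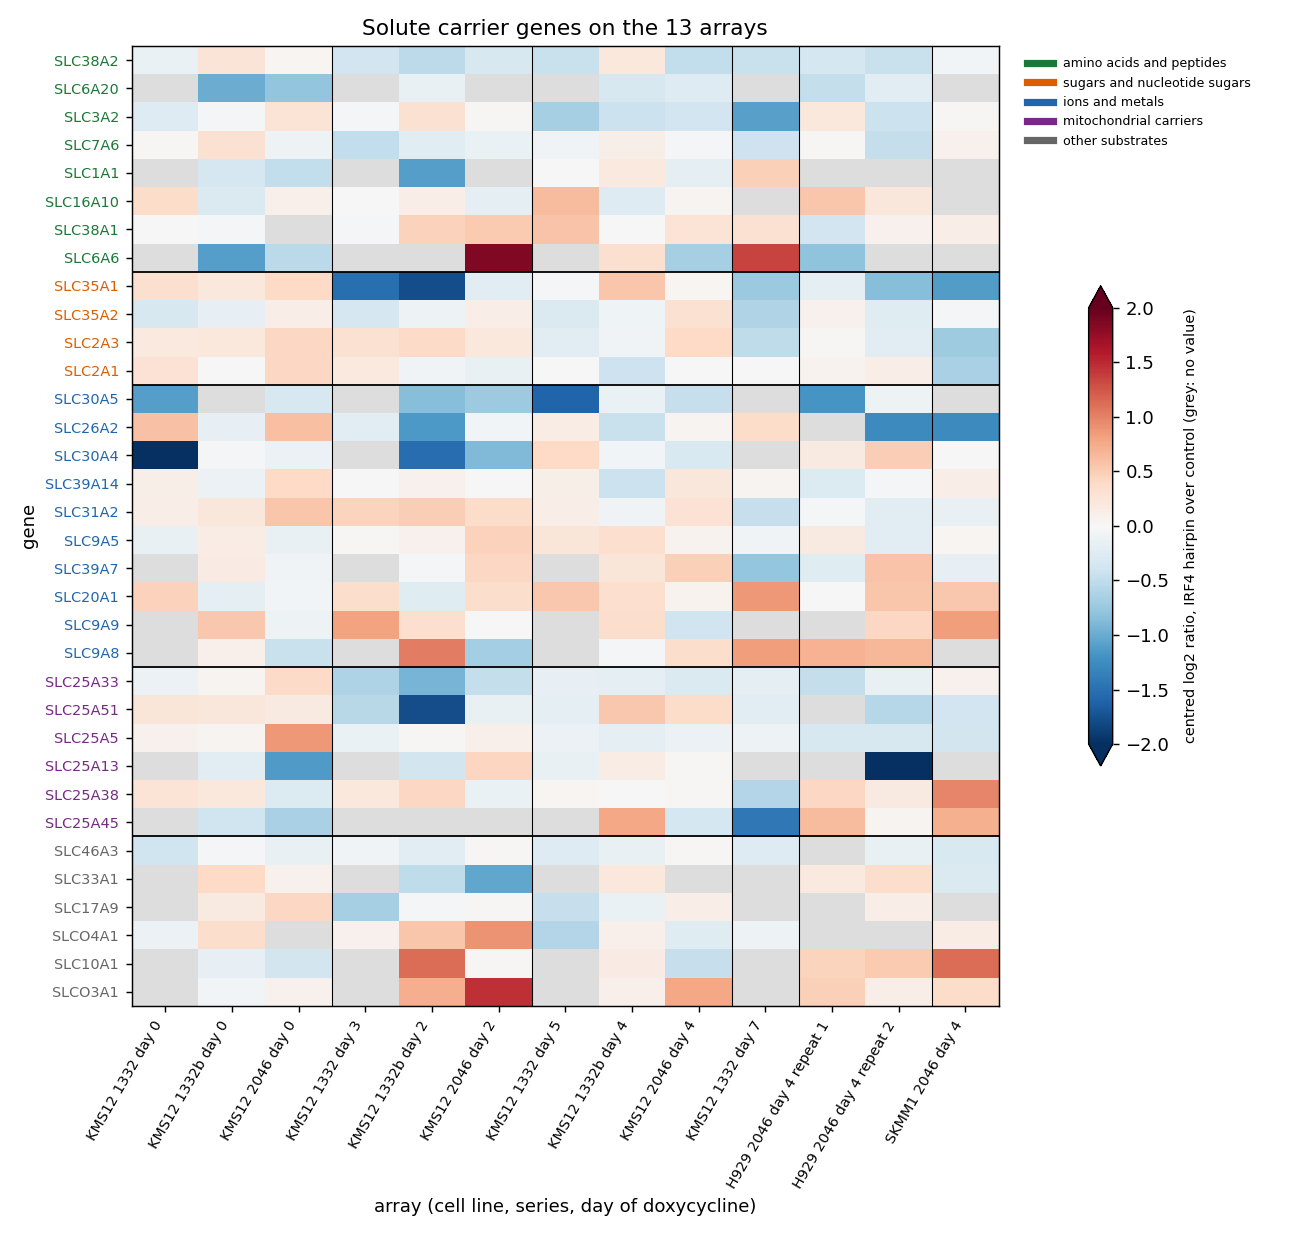
Centred log2 ratio of IRF4 hairpin over control for the 34 solute carrier genes (rows, coloured by substrate) on the 13 arrays (columns, in the order uninduced, days 2-3, days 4-5, day 7, H929, SKMM1); colour runs from -2 to 2 and grey marks no value. SLC35A1 is darkest at days 2-3 in series 1332 and 1332b (-1.51 and -1.77), and SLCO3A1 is above 0 on the 7 induced arrays that measured it.

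With limma, no gene of any kind passed the adjusted threshold at days 2-3 (0.0%), and at an unadjusted p under 0.05 the members numbered 6 of 30 against 22.4% of all genes tested. These 6 were SLC35A1, SLC25A33, SLC33A1, SLC25A51 and SLC26A2, with means below the uninduced one, and SLCO3A1, with a mean above it. For SLC26A2 the arrays overlapped the uninduced ones. The arrays at days 2-3 all lay below the uninduced ones for 7 members (18.2% of all genes tested) and all above for 2 members (15%). At days 4-5 against uninduced, limma again called 0.0% of genes at the adjusted threshold, and 0 of 33 members had an unadjusted p under 0.05, where 5.75% of all genes did. Arrays at days 4-5 all lay below the uninduced ones for 4 members, SLC3A2, SLC25A5, SLC25A33 and SLC17A9 (6.43% of all genes tested), and all above for 6, SLC1A1, SLC6A20, SLC25A13, SLC25A45, SLC39A7 and SLCO3A1 (11%).

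**Figure D2:**
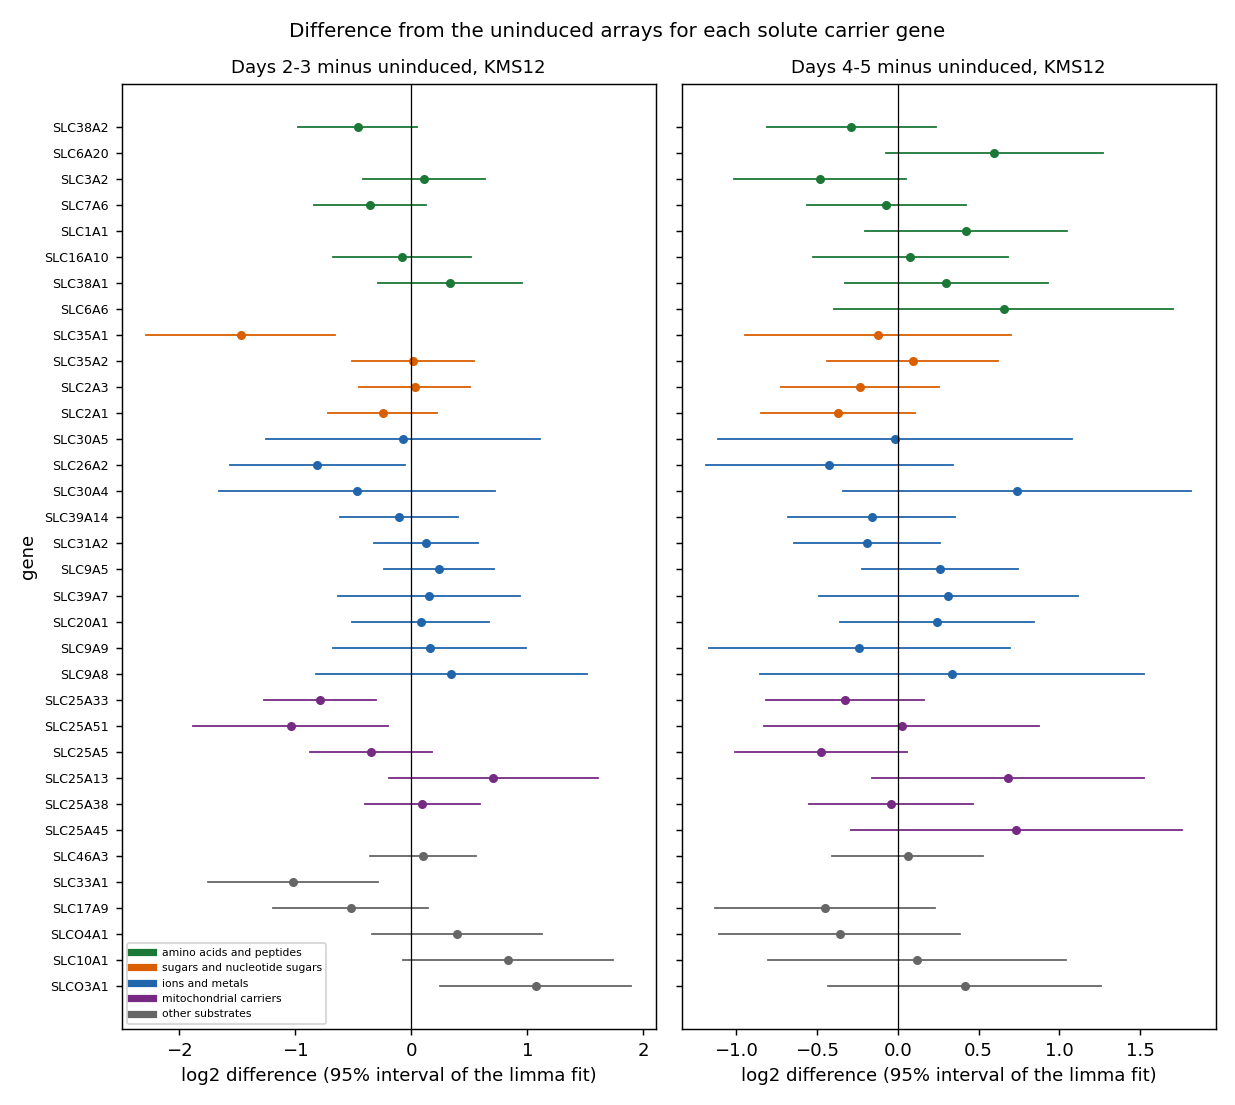
Log2 difference of the days 2-3 arrays (left) and the days 4-5 arrays (right) from the uninduced arrays in KMS12 for each solute carrier gene, with the 95% interval of the limma fit as the line; colour gives the substrate class, and a gene with values on fewer than 2 arrays of a group has no point. The point farthest to the left is SLC35A1 at days 2-3 (-1.47), while at days 4-5 each interval spans 0. The axes of the panels differ in range.

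Among the carriers of sugars and nucleotide sugars, SLC35A1 had the lowest ratios at days 2-3. SLC35A1 brings CMP-sialic acid into the Golgi, where sialic acid is added to glycoproteins. Its log2 ratios were 0.31, 0.21 and 0.40 on the uninduced arrays of series 1332, 1332b and 2046, and -1.51, -1.77 and -0.21 at days 2-3. At days 4-5 they were -0.04, 0.56 and 0.03, followed by -0.74 at day 7 of series 1332. Series 1332 and 1332b were low at days 2-3, series 2046 was only slightly below 0, and the 3 arrays did not overlap the uninduced ones. The days 2-3 mean was -1.16 ± 0.84 (SD, n = 3), or 44.6% of the control culture as a geometric mean, against 0.31 ± 0.09 (SD, n = 3) uninduced. That is a log2 difference of -1.47 (SE 0.37, 95% interval -2.28 to -0.66), a 2.77-fold lower ratio, with a limma adjusted p of 0.0889.

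SLC35A1 was measured by 2 features, and each showed the same order of the series at days 2-3. The first feature gave -1.63, -2.0 and -0.26 for series 1332, 1332b and 2046, and the second gave -1.39, -1.55 and -0.16. At day 7 they parted, with -0.12 for the first and -1.37 for the second. Without the series 2046 array at day 2, SLC35A1 passed the threshold (difference -1.95, limma adjusted p = 0.00203), as did 15.3% of all genes then tested. The 3 arrays at days 4-5 lay above the 3 at days 2-3, by 1.35 on the log2 scale (SE 0.37, limma adjusted p = 0.249).

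The other sugar carriers had smaller ratios. SLC35A2 brings UDP-galactose into the Golgi, and its log2 ratios ran from -0.34 to 0.14 at days 2-3 and from -0.29 to 0.30 at days 4-5, within reach of the uninduced values of -0.31, -0.17 and 0.13. SLC2A1, the widely expressed glucose transporter GLUT1, gave 0.28, 0.00 and 0.42 uninduced, 0.19, -0.07 and -0.15 at days 2-3, and -0.01, -0.41 and 0.01 at days 4-5, in the order 1332, 1332b, 2046. Its days 4-5 array lay below the uninduced array of the same series in each of the 3 series, but the groups overlapped, with a difference of -0.37 (SE 0.22, limma adjusted p = 0.793) that was -0.24 without the series 1332b array at day 4 and -0.12 with 1 feature per gene. SLC2A3, the high-affinity glucose transporter GLUT3, was above 0 on the 3 uninduced arrays (0.19, 0.21 and 0.41) and the 3 at days 2-3 (0.31, 0.39 and 0.21). At days 4-5 it gave -0.23, -0.06 and 0.41, at day 7 -0.50 and in SKMM1 -0.71. Its 2 features had medians of opposite sign over the induced arrays. Over the 4 sugar carriers the median ratio was -0.552 on the day 7 array and -0.675 in SKMM1, each a single array. On the H929 arrays it was 0.048 and -0.234.

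The mitochondrial carriers included SLC25A33 and SLC25A51, which were low at days 2-3, and SLC25A5, which was low relative to the uninduced arrays later. SLC25A33 imports pyrimidine nucleotides into the matrix. Its log2 ratios were -0.11, 0.06 and 0.39 uninduced, -0.62, -0.94 and -0.47 at days 2-3, and -0.16, -0.20 and -0.29 at days 4-5. The 6 arrays of both induced windows lay below the 3 uninduced ones, which held for 2 of the 29 members tested in that comparison (3.24% of all genes). The days 2-3 difference was -0.79 (SE 0.22, 95% interval -1.27 to -0.31, limma adjusted p = 0.0922), and over both windows it was -0.56 (SE 0.19, limma adjusted p = 0.279). Without the series 2046 array at day 2, the former passed the threshold (-0.89, limma adjusted p = 0.0273).

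SLC25A51 carries NAD into mitochondria. Its log2 ratios were 0.24, 0.23 and 0.17 uninduced, -0.56, -1.77 and -0.14 at days 2-3, and -0.20, 0.55 and 0.36 at days 4-5. In series 1332 its 2 features gave -0.50 and 0.99 uninduced, and at day 3 only the first had a value, -0.56. The first feature alone thus hardly changed in that series. As with SLC35A1, the lowest value was that of series 1332b at day 2 and the highest of that window was that of series 2046. The days 2-3 mean was -0.82 ± 0.84 (SD, n = 3), and the difference from uninduced was -1.04 (SE 0.38, limma adjusted p = 0.15). Without the series 2046 array it became -1.38 (limma adjusted p = 0.0228), and without the series 1332b array -0.57 (limma adjusted p = 0.306). With 1 feature per gene the difference was -0.82 (limma adjusted p = 0.273). From days 2-3 to days 4-5 the ratio differed by 1.06 (SE 0.38, limma adjusted p = 0.28), or by 0.59 without the series 1332b array at day 2, and the groups overlapped.

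SLC25A5, an exchanger of ADP for ATP across the inner membrane, gave 0.09, 0.06 and 0.87 uninduced, -0.14, 0.02 and 0.10 at days 2-3, and -0.12, -0.18 and -0.11 at days 4-5. The series 2046 uninduced array was far above the other two. The days 4-5 difference of -0.48 (SE 0.24, limma adjusted p = 0.793) was -0.21 without that array. In H929 the values were -0.33 and -0.31, and in SKMM1 -0.37. It was measured by 5 features, not all of the same sign over the induced arrays.

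SLC25A13, the aspartate and glutamate exchanger citrin, had values on 8 arrays. It gave -0.21 and -1.14 on the uninduced arrays of 1332b and 2046, -0.37 and 0.44 in the same series at days 2-3, and -0.15, 0.15 and 0.03 at days 4-5 in 1332, 1332b and 2046. The single H929 array with a value gave -2.19, the lowest ratio of any member on any array. The days 4-5 difference was 0.68 (SE 0.37, limma adjusted p = 0.793), and 0.01 when tested against 0. SLC25A38, the carrier of glycine for heme synthesis, was above 0 on 8 of 10 induced arrays with a median of 0.11. SLC25A45, another member of the SLC25 family, had the highest median of this class over the induced arrays that measured it, 0.35 on 6 arrays, and its values ran from -1.43 at day 7 to 0.78 in series 1332b at day 4. It was tested on 2 arrays against 2 at days 4-5, with a difference of 0.73 (SE 0.44, limma adjusted p = 0.793), or 0.21 against 0.

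The promoters of the members were searched for 4 short motifs, since several members were low in the same window. RefSeq promoters (GRCh38.p14), running from 250 bases before to 50 bases after an annotated start, were found for 28 of the 34 members, in 35 windows. The E box CACGTG, which reads the same on both strands and is the letter pattern bound by MYC and related factors, lay in 7 windows of 7 members, SLC20A1, SLC25A13, SLC25A33, SLC25A38, SLC25A51, SLC26A2 and SLC9A5. It lay in 9.25% of the 4854 windows of tested genes and in 7.26% of all 35116. Of these 7 members, 3 had a lower mean at days 2-3 than uninduced (SLC25A33, SLC25A51 and SLC26A2, with differences from -1.04 to -0.79). The other 4 had a higher mean (SLC25A13 with 0.71, SLC9A5 with 0.24, SLC25A38 with 0.10 and SLC20A1 with 0.08). For SLC26A2 and for these 4 the arrays overlapped the uninduced ones. The 80 bases before the start are shown for the first 3 and, of the other 4, for SLC25A38, with the E box in capitals, 5′ to 3′ on the strand of the gene.
SLC25A33, chr1:9539385-9539464, plus strand: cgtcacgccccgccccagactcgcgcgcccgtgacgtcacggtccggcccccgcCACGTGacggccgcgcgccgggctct
SLC25A51, chr9:37904128-37904207, minus strand: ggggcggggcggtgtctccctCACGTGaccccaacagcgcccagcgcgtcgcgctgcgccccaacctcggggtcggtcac
SLC26A2, chr5:149960678-149960757, plus strand: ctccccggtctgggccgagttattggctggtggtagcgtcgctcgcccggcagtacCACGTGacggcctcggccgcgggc
SLC25A38, chr3:39383290-39383369, plus strand: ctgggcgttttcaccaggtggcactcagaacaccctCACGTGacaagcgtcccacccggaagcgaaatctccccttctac

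In these stretches the E box begins 26 bases before the start of SLC25A33, 59 before that of SLC25A51, 24 before that of SLC26A2 and 44 before that of SLC25A38. The match is a description of letters in the window, and the ratios of these 4 genes did not run together: at days 2-3 SLC25A38 gave 0.20, 0.42 and -0.14 in series 1332, 1332b and 2046. Of the other motifs, searched on both strands, the amino acid response element TGATGNAAN lay in windows of SLC3A2, SLC38A1 and SLC9A9 (2.49% of the windows of tested genes). The ETS-IRF composite element, a pattern that IRF4 binds with an ETS partner, lay in 1 member window, that of SLC25A38, and in 3.03% of the windows of tested genes. There it begins 23 bases before the start and does not overlap the E box. The interferon response element lay in 0 member windows and in 4.08% of those of tested genes.

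Among the amino acid carriers, SLC3A2 had lower ratios at days 4-5 than before induction or at days 2-3. Its log2 ratios were -0.27, -0.04 and 0.27 uninduced, -0.03, 0.31 and 0.02 at days 2-3, and -0.67, -0.42 and -0.39 at days 4-5, with -1.09 at day 7 of series 1332. The days 4-5 arrays lay below all arrays of both earlier groups, and the day 7 array was lower still in the first of its 2 features only. In series 1332 the first feature gave -0.57 at day 5 and -1.64 at day 7, and the second -0.77 and -0.53. The days 4-5 mean was -0.49 ± 0.15 (SD, n = 3), or 71.0% of control, a difference of -0.48 from uninduced (SE 0.24, 95% interval -1.02 to 0.05, limma adjusted p = 0.793) and of -0.59 from days 2-3 (SE 0.24, limma adjusted p = 0.3). Both features lay below 0 at days 4-5 wherever they had a value. In H929 the repeats gave 0.21 and -0.43, which straddle 0, and SKMM1 gave 0.03.

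SLC7A5, the light chain paired with SLC3A2, is shown for comparison. It gave 0.33, -0.12 and 0.20 uninduced, -0.08, 0.05 and -0.07 at days 2-3, and -0.88, -0.63 and -0.33 at days 4-5, with -0.85 at day 7. Its days 4-5 arrays too lay below the arrays of both earlier groups, with a difference from uninduced of -0.75 (SE 0.24, limma adjusted p = 0.793). SLC7A6, another light chain that exchanges cationic for neutral amino acids, gave -0.06, 0.12 and -0.04 at days 4-5 against 0.03, 0.31 and -0.11 uninduced, and its groups overlapped there. At days 2-3 its values of -0.49, -0.21 and -0.14 lay below the uninduced ones. The first and second of its 3 features did overlap. In series 2046 they gave -0.24 and 0.02 uninduced and -0.17 and 0.21 at day 2. The third did not overlap, but had no value at day 3 of series 1332. The neutral amino acid exchanger SLC1A4, also shown for comparison, gave 0.80, 0.42 and 0.45 at days 2-3 against 0.23, -0.04 and 0.07 uninduced (difference 0.47, SE 0.22, limma adjusted p = 0.241), and -0.88 at day 7.

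SLC38A2 and SLC38A1 take up glutamine and other neutral amino acids with sodium. SLC38A2 was below 0 on 9 of the 10 induced arrays, with a median of -0.41, the lowest of the amino acid carriers. Its values were -0.14, 0.25 and 0.04 uninduced, -0.38, -0.53 and -0.33 at days 2-3, and -0.44, 0.22 and -0.49 at days 4-5. The days 2-3 arrays did not overlap the uninduced ones, with a difference of -0.46 (SE 0.23, limma adjusted p = 0.267) that was -0.69 with 1 feature per gene, while series 1332b at day 4 was close to its value before induction. The first of its 2 features did overlap, with -0.47 uninduced and -0.40 at day 2 in series 2046. SLC38A1 lay on the other side of 0 on 8 of 10 induced arrays, with a median of 0.20. It gave 0.01 and -0.04 on the uninduced arrays of 1332 and 1332b, -0.03, 0.46 and 0.52 at days 2-3, and 0.57, 0.01 and 0.27 at days 4-5. The -0.03 averaged 2 features that gave -0.78 and 0.73.

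The remaining amino acid carriers were measured less completely. SLC6A20, a carrier of proline and other imino acids, had values on 7 arrays and was below 0 on each. It stood at -0.99 and -0.79 on the uninduced arrays of 1332b and 2046 and at -0.33 and -0.26 in the same series at day 4, a difference of 0.60 (SE 0.29, limma adjusted p = 0.793). Against 0 instead of against the uninduced arrays the days 4-5 value was -0.29, so the direction rests on the uninduced ratios. SLC1A1, a transporter of glutamate and cysteine, gave -0.34 and -0.50 uninduced, -1.10 on the single array at days 2-3 that measured it (series 1332b), 0.00, 0.19 and -0.18 at days 4-5, and 0.48 at day 7. The days 4-5 difference of 0.42 (SE 0.27, limma adjusted p = 0.802) was 0.14 when less often measured features were kept and 0.00 against 0. SLC6A6, the taurine transporter, ranged from -0.81 to 1.85 over 5 induced arrays, with the highest median of the class, 0.32. SLC16A10, a carrier of aromatic amino acids, ranged from -0.26 to 0.63 over 8 induced arrays.

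**Figure D3:**
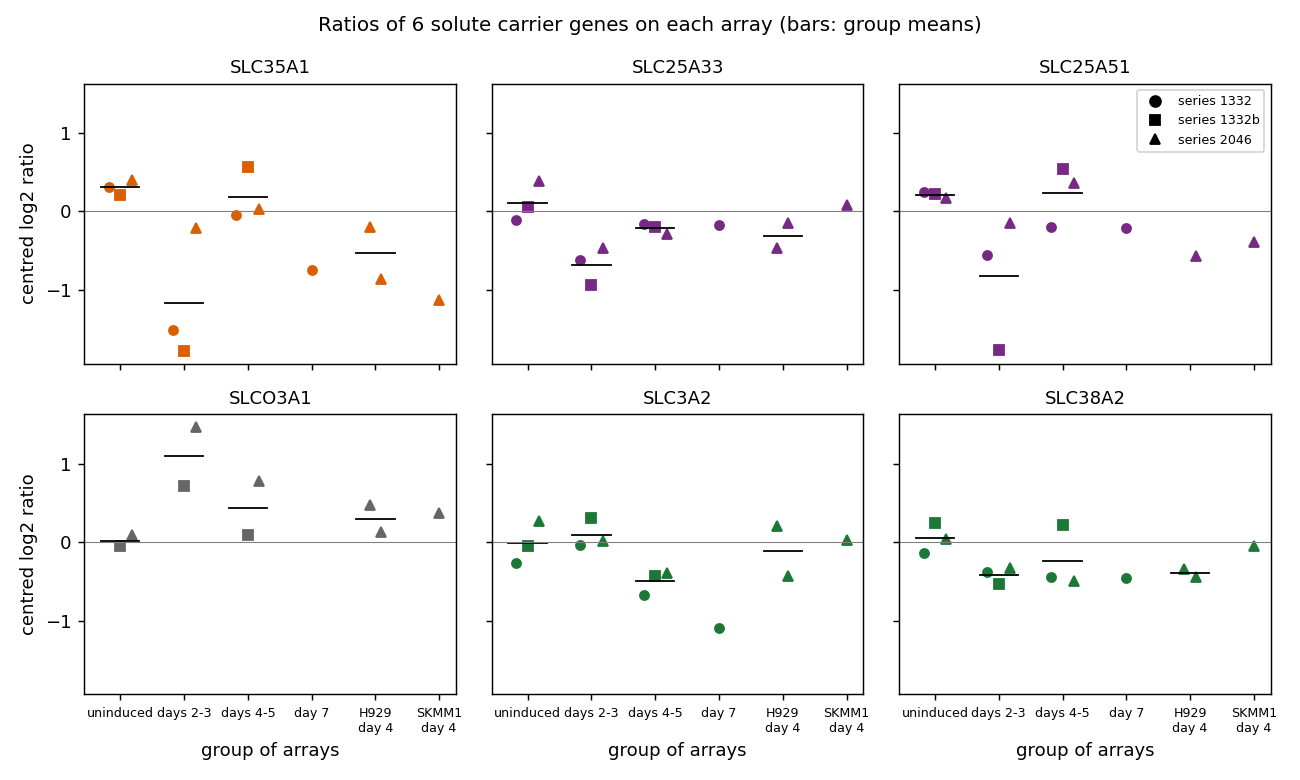
Centred log2 ratio of hairpin over control (vertical axis) for SLC35A1, SLC25A33, SLC25A51, SLCO3A1, SLC3A2 and SLC38A2 in the 6 groups of arrays; each point is 1 array, its shape the series, and the bar is the group mean where a group has more than 1 array. For SLC35A1 and SLC25A51 the series 2046 triangle at day 2 (-0.21 and -0.14) stands well above the points of series 1332 and 1332b, and for SLC3A2 the days 4-5 points lie below those of both earlier groups.

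The carriers of ions and metals had a median difference of 0.11 over 10 genes at days 2-3 and of 0.11 at days 4-5. SLC26A2, a sulfate transporter that feeds the sulfation of proteoglycans, gave 0.58, -0.17 and 0.60 uninduced and -0.22, -1.15 and -0.05 at days 2-3. Each series was lower at days 2-3 than before induction, although the groups overlapped because series 1332b started below 0. The difference was -0.81 (SE 0.34, 95% interval -1.56 to -0.06, limma adjusted p = 0.197), and -0.47 without the series 1332b array at day 2 (limma adjusted p = 0.443) or with the days 2-3 arrays tested against 0 (limma adjusted p = 0.208). With the culture series as replicate block the difference was again -0.81 (SE 0.20, limma adjusted p = 0.066). Without the series 1332b uninduced array it was -1.06 (limma adjusted p = 0.0857). Neither passed the threshold. At days 4-5 SLC26A2 gave 0.14, -0.45 and 0.05.

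The zinc transporters of the SLC30 family, which move zinc out of the cytosol into vesicles or the secretory pathway, had scattered ratios. SLC30A4 gave -2.04, -0.05 and -0.11 uninduced, so series 1332 stood far below the other two. It gave -1.52 and -0.88 at day 2 of 1332b and 2046, and 0.39, -0.06 and -0.31 at days 4-5. The days 4-5 arrays lay above those of days 2-3 by 1.21 (SE 0.54, limma adjusted p = 0.337), and their difference from uninduced of 0.74 (SE 0.49, limma adjusted p = 0.802) was 0.09 without the series 1332 uninduced array. SLC30A5 was below 0 on the 7 induced and the 2 uninduced arrays that measured it, from -1.60 to -0.10 induced and at -1.11 and -0.33 uninduced. Its induced median of -0.73 was the lowest of any member, and the uninduced values lay within the same range.

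The zinc importers SLC39A14 and SLC39A7 had induced medians of 0.03 and 0.11. SLC31A2, a copper transporter, gave 0.14, 0.23 and 0.56 uninduced and was below 0 on 5 of 10 induced arrays, among them H929 at -0.04 and -0.22. SLC20A1, a sodium-coupled phosphate transporter, was above 0 on 8 of 10 induced arrays, with 0.35, -0.24 and 0.35 at days 2-3, 0.54, 0.33 and 0.07 at days 4-5 and 0.87 at day 7, but series 1332 was already at 0.46 before induction. Its 2 features gave 0.52 and 0.56 at day 5 of series 1332 but parted on several other arrays. They gave -0.01 and 0.70 at day 2 of series 2046, and -0.26 and 0.92 at day 4 of 1332b. The sodium-proton exchangers SLC9A5, SLC9A8 and SLC9A9 had induced medians of 0.08, 0.67 and 0.36. SLC9A8, the highest of this class, ranged from -0.68 to 1.03 over the 7 induced arrays that measured it.

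Of the carriers with other substrates, SLCO3A1 and SLC33A1 had the smallest p-values, each on 2 arrays against 2 at days 2-3. SLCO3A1 transports organic anions such as prostaglandins. It gave -0.05 and 0.09 on the uninduced arrays of 1332b and 2046, 0.72 and 1.47 at day 2, and 0.10 and 0.78 at day 4. It was above 0 on the 7 induced arrays that measured it, H929 with 0.48 and 0.13 and SKMM1 with 0.37 included. The days 2-3 difference was 1.07 (SE 0.36, 95% interval 0.25 to 1.90, limma adjusted p = 0.14), and over both windows it was 0.74 (SE 0.31, limma adjusted p = 0.32).

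SLC33A1 supplies acetyl-CoA to the endoplasmic reticulum. It gave 0.40 and 0.09 uninduced and -0.50 and -1.04 at day 2 in series 1332b and 2046, then 0.21 at day 4 of 1332b. The days 2-3 difference was -1.02 (SE 0.31, limma adjusted p = 0.128), and -0.52 (limma adjusted p = 0.438) when its second, less often measured feature was kept. SLC10A1, a bile acid transporter of hepatocytes, gave -0.16 and -0.36 uninduced, 1.11 and 0.03 at day 2, and 0.17 and -0.46 at day 4, a days 2-3 difference of 0.83 on 2 arrays against 2 (SE 0.40, limma adjusted p = 0.255). It had 2 features, and at day 2 the 1.11 came from the second alone and the 0.03 from the first alone. The uninduced values averaged both. SLCO4A1, which transports thyroid hormones among other anions, gave 0.08, 0.56 and 0.90 at days 2-3 and -0.58, 0.10 and -0.25 at days 4-5, a difference of -0.76 between the windows (SE 0.29, limma adjusted p = 0.297) with groups that overlapped. SLC17A9, the vesicular nucleotide transporter, gave 0.18 and 0.41 uninduced, and its 6 values at days 2-3 and days 4-5 ran from -0.66 to 0.13. SLC46A3, a lysosomal transporter, had the lowest induced median of this class, -0.15.

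The later window was also set against the earlier one, where 51.7% of the members tested lay below 0, near the 47.7% of all genes tested. With 29 members tested, limma called 0 at the adjusted threshold (0.0% of all genes), and 5 had an unadjusted p under 0.05 against 14.5% of all genes. SLC35A1, SLC25A51 and SLC30A4 were higher at days 4-5 and SLC3A2 and SLCO4A1 lower, with the values given above. Over both windows against uninduced, limma likewise called 0 of 29 members (0.0% of all genes), and SLC25A33, SLC35A1 and SLCO3A1 had an unadjusted p under 0.05, against 14.9% of all genes. The difference of SLC35A1 over both windows was -0.80 (SE 0.32, limma adjusted p = 0.298), that of SLC26A2 was -0.62 (SE 0.29, limma adjusted p = 0.353) and that of SLC25A13 was 0.70 (SE 0.33, limma adjusted p = 0.363). Tested against 0 these became -0.49, -0.28 and 0.02, and with centring by class of measurement SLC25A13 gave 0.38 and SLCO3A1 0.49. Both comparisons with the uninduced arrays share those 3 arrays.

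The uninduced arrays compare the hairpin and control cultures before doxycycline. Of 34 members on the uninduced arrays, 20 lay above 0 and 14 below, with a median of 0.06 against -0.03 over all genes. None passed the adjusted threshold against 0 with limma (0.0% of all genes), and 3 of 34 had an unadjusted p under 0.05, a share near the 8.27% of all genes. They were SLC6A20 with a mean of -0.89, SLC6A6 with -0.83 and SLC25A13 with -0.68. Each of these had values on 2 uninduced arrays, and SLC6A6 stood at -0.31 when features with values on fewer than 7 arrays were kept. By the rule for the smallest p, SLC30A4 (-0.73, or -0.08 without series 1332) and SLC31A2 (0.31, or 0.18 without series 2046 and 0.14 with centring by class of measurement) followed. A gene-specific dye effect stays in these ratios against 0, since dyes were not swapped.

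In the other lines at day 4, SLC35A1 gave -0.20 and -0.85 in H929 and -1.12 in SKMM1, where KMS12 at days 4-5 had given -0.04, 0.56 and 0.03. The H929 values came from its second feature alone and the SKMM1 value from its first alone, while those of KMS12 averaged both. H929 had hairpin 2046 at day 4 only and no uninduced array, while the KMS12 group mixes series and days. Line, hairpin number and any offset before induction therefore cannot be told apart in this comparison. The H929 difference from KMS12 at days 4-5 was -0.71 for SLC35A1 (SE 0.41), 0.63 for SLC10A1 (SE 0.39), -0.43 for SLC38A1 (SE 0.27), 0.38 for SLC3A2 (SE 0.26) and -0.25 for SLC31A2 (SE 0.22), with limma adjusted p-values from 0.442 to 0.631. Several of these rest on the pair of H929 arrays, whose values parted. Without repeat 1 the difference was 0.07 for SLC3A2 and -0.19 for SLC38A1, and without repeat 2 it was 0.70 for SLC3A2, -0.67 for SLC38A1, -0.39 for SLC35A1 and -0.16 for SLC31A2. That of SLC31A2 was -0.17 without the series 2046 array of KMS12 and -0.39 with 1 feature per gene. Of 24 members tested in this comparison, 0 passed the adjusted threshold (0.042% of all genes) and 0 had an unadjusted p under 0.05 (14.4% of all genes).

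For hairpin 2046 at day 4, taking KMS12, H929 and SKMM1 as 1 value each, 0 of 24 members passed against 0 (0.0% of all genes) and 2 had an unadjusted p under 0.05 (15.1% of all genes). SLC26A2 was at 0.05 in KMS12, -1.27 on the H929 array that measured it and -1.28 in SKMM1, a mean of -0.83 (SE 0.30, limma adjusted p = 0.294). The KMS12 value is a single array, and the series 1332b array of KMS12 at day 4 gave -0.45. Without KMS12 the mean of -1.28 had a limma adjusted p of 0.0237, when 11.6% of all genes passed. SLCO3A1 was above 0 in the 3 lines, with a mean of 0.48 (SE 0.19, limma adjusted p = 0.315). SLC35A1 had a mean of -0.54 (SE 0.25, limma adjusted p = 0.35), SLC25A38 of 0.44 (SE 0.23, limma adjusted p = 0.384) and SLC38A2 of -0.31 (SE 0.18, limma adjusted p = 0.42). Without SKMM1 the mean was -0.25 for SLC35A1 and 0.16 for SLC25A38, and without KMS12 it was -0.83 for SLC35A1 (limma adjusted p = 0.0566). SLC25A38 was above 0 in each line, from 0.03 in KMS12 to 0.98 in SKMM1. A dye effect or an offset before induction stays in these ratios against 0, and H929 and SKMM1 had no uninduced array. In KMS12 the uninduced ratios of series 2046 were 0.60 for SLC26A2, 0.09 for SLCO3A1 and 0.40 for SLC35A1. For SLC25A38 and SLC38A2 they were -0.27 and 0.04.

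How often a gene was measured moved with its difference from the uninduced arrays. Of the members, 14 had a value on all 13 arrays, 8 on 10 to 12 and 12 on 7 to 9. At days 4-5 the 11 tested members with 7 to 9 values had a median difference of 0.41, with 8 above 0, and the 14 with all 13 values had -0.18, with 3 above 0. Over all genes tested the same classes had medians of 0.32 and -0.12. On the uninduced arrays, features with 7 to 9 values had median ratios of -0.46, -0.03 and -0.41 in series 1332, 1332b and 2046, and those with all 13 values had 0.09, 0.04 and 0.37. Of the 6 members above the uninduced arrays at days 4-5, 5 had 7 to 9 values and SLC39A7 had 10, while of the 4 below, SLC3A2, SLC25A5 and SLC25A33 had all 13. With centring done within these classes of measurement, the days 4-5 differences were 0.05 for SLC1A1, 0.32 for SLC25A13, 0.35 for SLC6A20 and -0.18 for SLC2A1, and so moved by more than 1.5 times from the values above. Those of SLC25A45, SLC3A2, SLC25A5 and SLC30A4 were 0.49, -0.38, -0.43 and 0.74.

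**Figure D4:**
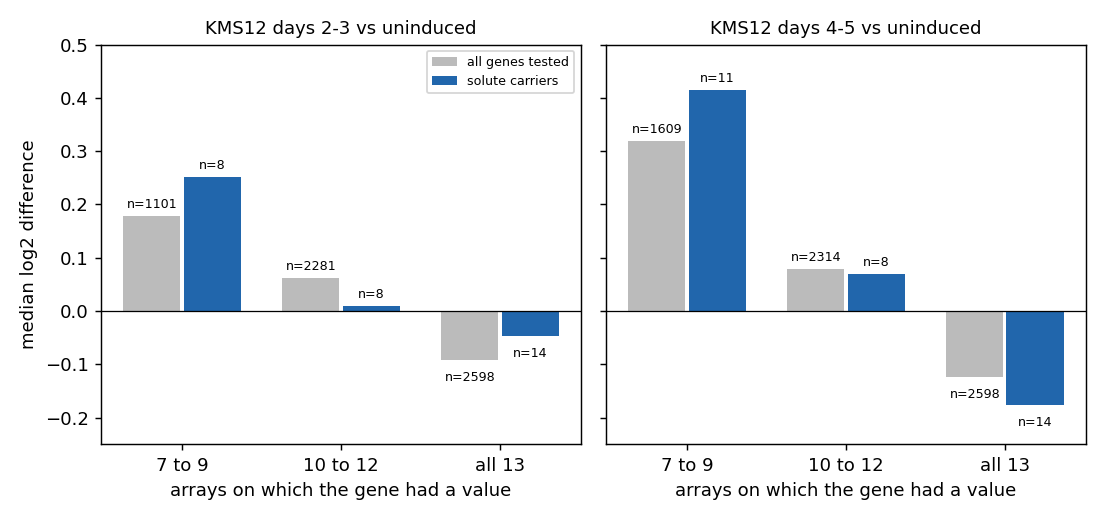
Median log2 difference from the uninduced arrays at days 2-3 (left) and days 4-5 (right), by the number of arrays on which a gene had a value, for all genes tested (grey) and for the solute carriers (blue); n is the number of genes. At days 4-5 both sets run from above 0 in genes with 7 to 9 values (0.32 and 0.41) to below 0 in genes with all 13 (-0.12 and -0.18).

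Other membrane transport genes also lacked a member past the threshold at days 4-5 against uninduced (0.0% of all genes). The 5 ABC transporters tested had a median difference of 0.22, the 7 ion pumps 0.37, the 11 channels 0.28 and the 7 carriers that the symbol rule does not cover -0.05, where all genes tested had 0.03. At days 2-3 the same lists had medians of 0.115 (5 tested), 0.097 (6), 0.345 (10) and -0.13 (7), where all genes tested had 0.02. How often these genes were measured was not taken into account. As a check of cell identity, 10 of 11 plasma cell markers were below 0 at days 4-5 with a median of -0.42, where 47.1% of all genes tested were below 0. The other, CD27, stood at 3.59, the highest difference of any gene tested. Of the B cell markers, 7 of 8 were above 0 with a median of 0.41, but on the uninduced arrays 8 of 8 had ratios below 0, with a median of -0.26. T cell markers had a median of 0.35 (5 of 6 above 0), myeloid markers -0.01 (2 of 4) and erythroid and stromal markers 0.58 (5 of 5), and none of these genes passed the adjusted threshold. The arrays give ratios alone, so whether a marker was absent from the cells cannot be read, and the part of these shifts in the solute carrier ratios was not tested.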

How the data were processed

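The authors deposited 1 table of log ratios, read as log2 since they span -9.78 to 7.51. Not given in the sources used here are the log base, the normalization, the background correction and the rule for blank spots. Dyes follow the labels. The lowest correlation between 2 arrays was -0.328, between arrays of different conditions, and the direction was kept. Symbols came from the platform annotation (10169 features had 1 symbol, 4 several, 5073 none), of which 10128 were found in a RefSeq gene table. The 10396 features with values on 7 or more arrays were centred per array on the median and averaged per gene, giving 6948 genes and unnamed features. The 34 members rested on 53 features. Of these genes, 14 had more than 1 feature, and 4 of the 14 had features of opposite sign over the induced arrays (SLC25A5, SLC2A3, SLC31A2 and SLC7A6). Without centring, the median over all genes at days 2-3 against uninduced moves from 0.02 to -0.09.

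Log2 ratios were fitted with limma 3.58.1 (R 4.3.3; lmFit, eBayes, two-sided) as 6 group means over 13 arrays, adjusted by Benjamini-Hochberg over all genes tested, threshold 0.05, with 2 or more arrays in each group of a contrast. Hairpin 2046 in 3 lines was a separate fit. The scripts were tested on simulated data. Tables used Python 3.11.15 with pandas 2.3.3. Members were named if past the threshold, among the 8 smallest p at days 2-3 or days 4-5 against uninduced or the 5 smallest elsewhere, at the extremes of their class, or on a short list of well-known transporters, and others were added to describe each class. The members and lists were chosen with earlier results of these data known. Arrays of the same series deviated together between the uninduced and induced groups (correlations of deviations over 3432 genes from 0.134 to 0.246), and the series was used as a block in an alternative fit. Between the induced windows the correlations were 0.359, -0.102 and -0.069.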

Additional observations from a re-analysis of the deposited data

How the results depend on the processing

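The count of solute carriers past the adjusted threshold with limma was 0 in each of the 7 comparisons and stayed 0 in 88 of 93 alternatives. Leaving out 1 array at a time, it ranged from 0 to 3 at days 2-3 against uninduced, from 0 to 2 between the windows, from 0 to 1 over both windows and from 0 to 1 for hairpin 2046 in 3 lines, and was 0 in the other comparisons. The departures at days 2-3, over both windows and between the windows came without the series 2046 array at day 2, which gave SLC35A1, SLC25A33 and SLC25A51 at days 2-3, SLC35A1 over both windows (-1.03, adjusted p = 0.0309, as 5.19% of all genes passed), and SLC35A1 and SLC25A51 between the windows (1.83 and 1.40, adjusted p = 0.00491 and 0.034, as 8.05% of all genes passed). That array is the only one of hairpin 2046 in its window, and the cause was not tested. Without the KMS12 array, 1 member passed for hairpin 2046, SLC26A2. Testing the days 2-3 arrays against 0 instead of against uninduced gave 3 members, SLC35A1 (-1.16, adjusted p = 0.0297), SLC25A33 (-0.68, adjusted p = 0.03) and SLCO3A1 (1.09, adjusted p = 0.0366), as 10.5% of all genes passed, with any dye effect left in. SLC6A20 at days 4-5 reversed against 0 (-0.29, against 0.60 relative to uninduced). With the culture series as replicate block, the paired fit called 0 members in each of 4 comparisons, and it changed no call. The median over the members ranged from -0.18 to 0.07 at days 2-3 and from -0.13 to 0.12 at days 4-5 over the settings, so neither median keeps a sign.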
